A study of Mus musculus with 20 samples.

Results

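The response of mouse liver to TCPOBOP in the absence of both the constitutive androstane receptor (CAR) and the pregnane X receptor (PXR) was measured on 4 of the study's 20 dual-colour arrays. These were the arrays whose titles name TCPOBOP together with deficiency of both receptors, a genotype called CARPXRKO here. Each array compared RNA of 1 treated liver, labelled with Cy5, with pooled RNA of 6 livers of vehicle-injected mice that also lacked both receptors, labelled with Cy3. The entries for 1 of these arrays conflict, as described below. All mice were C57BL/6J males of 9 to 12 weeks. They were injected intraperitoneally with TCPOBOP at 10 mg/kg or with 5% DMSO in corn oil as vehicle, and livers were taken 12 h later. The other arrays held treated livers of wild type (WT, 6 arrays), CAR-deficient (CARKO, 6) and PXR-deficient (PXRKO, 4) mice, each against a vehicle pool of its own genotype. The labels do not name the alleles behind the deficiencies.

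CAR and PXR are nuclear receptors of hepatocytes that bind DNA together with the retinoid X receptor and respond to foreign chemicals, drugs and bile acids. They switch on overlapping sets of genes for oxidation, conjugation and export, among them members of the Cyp2b and Cyp3a families. TCPOBOP is a potent agonist of mouse CAR, so livers without CAR and PXR show what the compound changes when its known receptor and the related one are both missing. The array, Sterolgene V1, is a small array for cholesterol and drug metabolism genes.

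The 120 mouse probes of the array were each printed in 3 spots. No file gives the gene behind a probe identifier, and at most 2 probes that rose and 2 that fell are therefore named in each comparison. The levels of the CAR and PXR transcripts, the roles of the probes and the liver markers could not be examined, so the genotype rests on the labels. Dyes were not swapped and the labels describe 1 pool for the genotype, apart from the conflict below. A dye bias of a probe, or an error of the pool, therefore cannot be told apart from a response. Tests against the pool leave out the spread between vehicle-treated mice. On CARPXRKO 3 the protocol text of the treated channel describes the vehicle pool, and the entries for the pool disagree, one naming both receptors and the other PXR only. The ratios of CARPXRKO 3 correlated with those of the other 3 arrays at Pearson r = 0.58, 0.70 and 0.59 over the tested probes, and all 6 pairs lay between 0.50 and 0.70. These arrays share a dye order and, unless CARPXRKO 3 had another pool, also a pool, so the correlations are a description.

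On the CARPXRKO arrays the mouse spots had a median Cy5 signal of 439 to 902.5 intensity units over backgrounds of 82 to 203. The median Cy3 signal was 490 to 790.5 over backgrounds of 256 to 424. The treated liver signal was well above background for 60 to 103 of the 120 probes and the pool signal for 35 to 73, with the lowest numbers on array 1. Before normalization the median log2 ratio of treated over pool was 0.45 to 0.92, so Cy5 was the brighter channel on all 4 arrays. Precision is limited by the small number of arrays.

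The negative control spots, 12 per array, were bright in Cy5 in this genotype. Their median Cy5 signal above background was 158.5, 628, 183 and 372 intensity units on CARPXRKO 1 to 4, against −103.5 to 74 on the WT, 20 to 83 on the CARKO and 67 to 209.5 on the PXRKO arrays. Arrays 2 and 4, which occupied the lower slide position, had the highest values, and on array 2 the controls came close to the median of the mouse spots, 688.5. In Cy3 the same spots were at 10 to 79. Of the 82 tested probes, 6, 20, 2 and 7 had a Cy5 signal below the median negative control on arrays 1 to 4, while none did on any WT or PXRKO array and at most 2 did on a CARKO array. The part of this Cy5 signal in the responses was not tested beyond the repeat without dim probes described with the responses. The signal of added control RNA also differed by genotype. The spots of utility control 3 were bright on the WT and CARKO arrays (Cy5 medians of 16736.5 to 65431) and near background on the PXRKO and CARPXRKO arrays (115 to 616.5). This difference cannot be told apart from genotype in the comparisons with WT and CARKO, and its source was not tested.

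**Figure D1:**
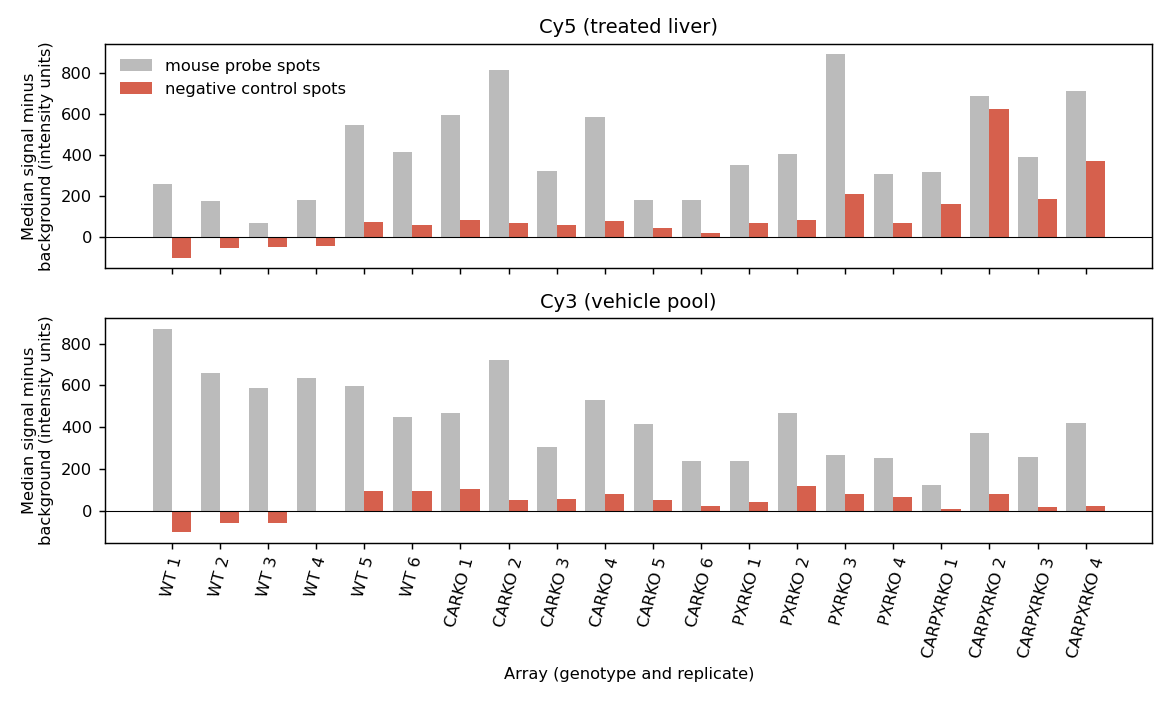
Median signal above local background of the mouse probe spots (grey) and of the 12 negative control spots (red) on each of the 20 arrays, in intensity units, for the treated liver channel (Cy5, top) and the pool channel (Cy3, bottom). In Cy5 the negative controls of the CARPXRKO arrays stood at 158.5, 628, 183 and 372, and in Cy3 at 10 to 79.

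Of the 120 mouse probes, 82 were tested, those with values on 3 or more arrays in each of the genotypes. In livers without CAR and PXR, 10 of the 82 (12.2%) rose and 7 (8.54%) fell after TCPOBOP, or 20.7% in either direction (limma, Benjamini-Hochberg adjusted p under 0.05). Without adjustment 23 probes had a p under 0.05. The changes were small. The mean log2 ratios of the probes that rose lay between 0.28 and 0.65 (median 0.46). Those of the probes that fell lay between −0.42 and −0.57 (median −0.52). Where the pool signal was not well above background, these ratios are not measured folds. The median of all 82 probes was 0.0073. No probe had a mean beyond 1 on the log2 scale in CARPXRKO or in CARKO, whereas 6 had one in WT and 6 in PXRKO.

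**Figure D2:**
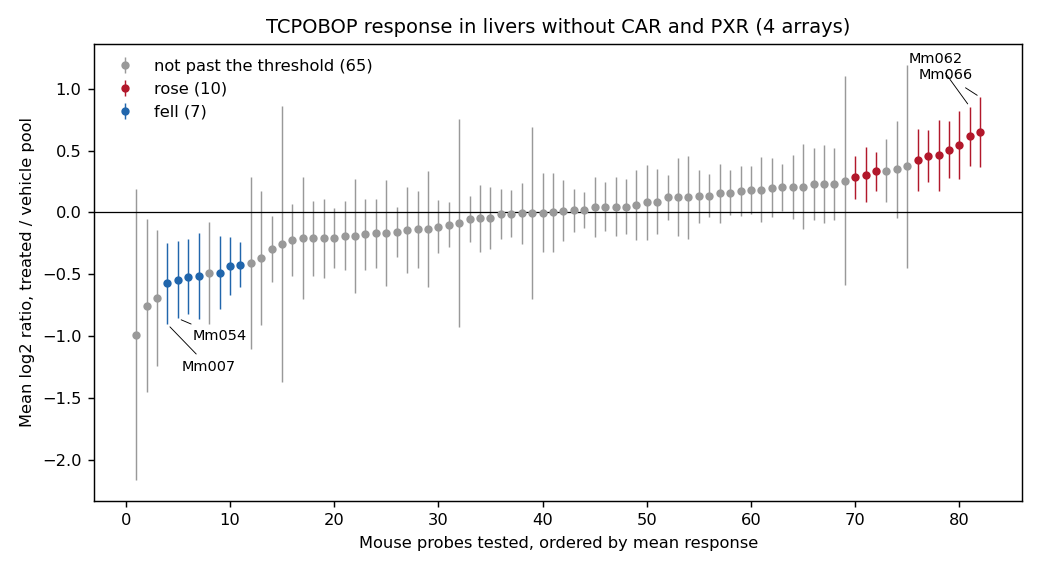
Mean log2 ratio of treated liver over vehicle pool for each of the 82 tested probes in CARPXRKO (4 arrays), ordered by size, with the 95% interval from limma. The 10 probes that rose (red) lie between 0.28 and 0.65, the 7 that fell (blue) between −0.42 and −0.57, and the lowest means, with wide intervals, did not pass the threshold. The intervals use the spread pooled over all genotypes, not that of CARPXRKO alone.

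Mm066 had the highest mean ratio. Its signal above background in the treated livers was 1300, 1661, 1887 and 2877 intensity units on arrays 1 to 4, and in the pool 321, 748, 747 and 1079. The normalized log2 ratios were 0.64, 0.44, 0.76 and 0.74. The treated liver was the brighter on every array, most weakly on array 2. The mean was 0.65 ± 0.15 (SD, n = 4), or 1.57-fold, with a 95% interval of 0.36 to 0.93 and an adjusted p of 0.0035 in limma. The pool signal of Mm066 was not well above background on array 1.

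Mm062 was the second largest rise, with Cy5 signals of 2169, 3110, 3134 and 4725 intensity units against 607, 1261, 1239 and 1705 in the pool. Its log2 ratios were 0.41, 0.54, 0.75 and 0.76, so arrays 3 and 4 were higher than arrays 1 and 2 and none was near 0. The mean was 0.62 ± 0.17 (SD, n = 4), or 1.53-fold (95% interval 0.38 to 0.85, limma adjusted p = 0.0024). As for Mm066, array 1 was the one on which the pool signal was not well above background.

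Mm007 had the lowest mean among the probes that fell and was well above background in both channels on all 4 arrays. Its Cy5 signal was 1208, 1196, 883 and 1746 intensity units and its Cy3 signal 832, 1327, 827 and 1631. After normalization the log2 ratios were −0.73, −0.76, −0.33 and −0.48, all below 0 but weaker on arrays 3 and 4. The mean was −0.57 ± 0.21 (SD, n = 4), a fall of 1.49-fold (95% interval −0.90 to −0.24, limma adjusted p = 0.0141). Before normalization the same ratios were 0.42, −0.17, 0.088 and 0.065, so this fall is relative to the other mouse probes of each array.

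Mm054 had Cy5 signals of 465, 1170, 794 and 1315 intensity units against 327, 1075, 888 and 1522 in the pool. Its log2 ratios were −0.42, −0.47, −0.57 and −0.72 after normalization and 0.27, 0.076, −0.15 and −0.23 before it. All 4 arrays lay below 0 after normalization and arrays 3 and 4 also before it. The mean was −0.54 ± 0.13 (SD, n = 4), a fall of 1.46-fold (95% interval −0.86 to −0.23, limma adjusted p = 0.0141). On array 1 the pool signal of Mm054 was not well above background.

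All 17 changed probes had the same sign on 4 of 4 arrays. Such agreement was not rare: 22 of the 82 probes were above 0 and 24 below 0 on all 4 arrays, and 29 of the 65 probes that did not pass the threshold were among them. The SD over arrays was 0.031 to 0.24 for the probes that rose and 0.096 to 0.21 for those that fell. Its median over all 82 probes was 0.16, against 0.23 in WT, 0.24 in CARKO and 0.27 in PXRKO. The limma intervals and p-values use 1 spread per probe, pooled over all genotypes. A wide interval or a missing call can therefore reflect scatter in the other genotypes. The 3 spots of a probe within an array had a median SD of 0.109, ranging from 0.084 on array 4 to 0.170 on array 1.

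**Figure D3:**
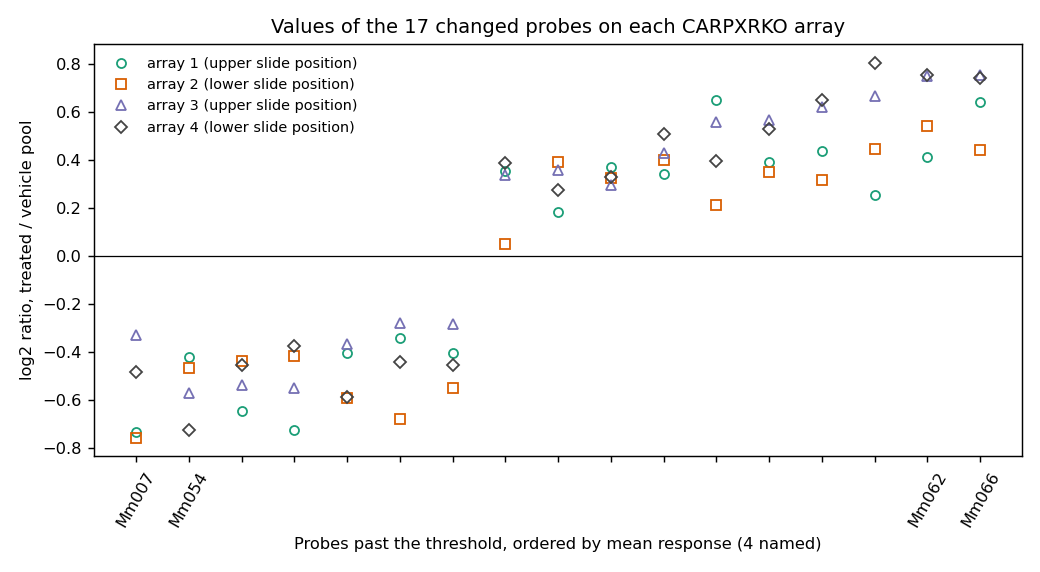
Log2 ratios of the 17 changed probes on each of the 4 CARPXRKO arrays, with the probes ordered by mean and the slide position of each array given by its symbol. All points of the 7 falling probes lie below 0 and all points of the 10 rising probes above it, with the smallest rise on array 2.

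The detection of the changed probes differed. Of the 10 that rose, 3 were well above background in both channels on all 4 arrays, 9 had Cy5 and 6 had Cy3 above background on at least 3 arrays, and 1 had Cy3 above background on none. Of the 7 that fell, 2 were above background in both channels on all 4 arrays, and 6 were so on at least 3 arrays in Cy5 and 6 in Cy3. The median log2 brightness was 10.1 for the rises, 9.74 for the falls and 9.52 for the other 65 probes. Many of these 65 were also above background in both channels on all 4 arrays, but their share is not given. The higher median brightness therefore does not show that the changed probes were better detected than the others. Of the falls, 4, 6, 3 and 3 had a Cy5 signal below the highest negative control spot on arrays 1 to 4, against 2, 4, 1 and 1 of the rises. That spot was at 427, 1170, 285 and 578 intensity units, and the median mouse spot at 317.5, 688.5, 390.5 and 712.5. On arrays 1 and 2 a signal below the highest control was thus common among all mouse spots. The share of the 82 probes below it is not given. When the test was repeated on the 47 probes whose signal exceeded the negative control spots, a choice made after seeing the data, 9 rose and 3 fell. On the 55 probes well above background in both channels, 5 rose and 6 fell.

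The remaining 65 probes had means from −0.99 to 0.37, and 41 of them were within 0.2 of 0. For 40 of these 65 the 95% interval lay within 0.5 of 0 on either side, and for 58 within 1. For these 58 probes a doubling, which is 1 on the log2 scale, lay outside the interval. Some of them were dim in the pool, among them Mm039, with Cy3 well above background on 1 of 4 arrays. Where the pool was dim, the ratios are not measured folds and the intervals do not bound the change. The lowest mean belonged to Mm038, with log2 ratios of −0.50, −0.43, 0.13 and −3.15 on arrays 1 to 4 (−0.99 ± 1.47, SD, limma adjusted p = 0.257). The value of array 4 rests on 1 kept spot, with 49 intensity units in Cy5 and 862 in Cy3. Its 2 flagged spots had ratios of −0.094 and 0.12.

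Another 28 probes had values on at least 3 CARPXRKO arrays but too few in another genotype. Adding them, 18 of 110 probes (16.4%) rose and 9 (8.18%) fell, and these included the 17 above. The 28 probes contributed 7 rises and 2 falls, with means of −0.40 to 0.63. Most were dim: the pool signal was above background on no CARPXRKO array for 25 of the 28, and for 7 of the 9 called, so their ratios are not measured folds. The last 10 probes of the array had fewer than 3 values in CARPXRKO.

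The calls changed when single arrays were left out and when another centre was chosen for the ratios. The number of changed probes was 11 without array 1, 13 without array 2, 10 without array 3 and 9 without array 4. The number of probes tested in these fits is not given and may be below 82. Fewer arrays also lower the power of the test, and this was not told apart from the part of any 1 array. Array 3 has the conflicting label text, and the number was 8 when the other arrays of the study with such text were left out too. Mm066 and Mm062 passed the threshold without any 1 array (adjusted p at most 0.0244 in limma). Mm007 did not pass without array 1 (−0.52, adjusted p = 0.0692) or array 2 (−0.51), and Mm054 did not without array 3 (−0.54) or array 4 (−0.49, adjusted p = 0.0726). With the ratios centred on the calibration control spots in place of the mouse probes, the median of all 82 probes was −0.31 and no probe passed in limma (15 had an unadjusted p under 0.05). Mm066 and Mm062 were then at 0.37 and 0.45 and Mm007 and Mm054 at −0.81 and −0.92. With median centring in place of loess, Mm007 was at −0.44 and did not pass (adjusted p = 0.169). In the authors' deposited table, whose centring is unknown, 0 probes rose and 6 of 68 fell. The ratios reported here are relative to the other mouse probes on the array.

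The upper and the lower slide position each held 2 arrays of the genotype. In the upper position (arrays 1 and 3) Mm066 was at 0.70, Mm062 at 0.58, Mm007 at −0.53 and Mm054 at −0.49. In the lower position (arrays 2 and 4) these probes were at 0.59, 0.65, −0.62 and −0.60. These probes were named for having the same sign on all 4 arrays, so their signs within a position were fixed by that choice. Fits of the arrays of 1 position gave 4 changed probes in the upper and 0 in the lower (limma, 21 with an unadjusted p under 0.05), and a fit with position as a block gave 16.

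In the other genotypes, the median ratio of the 10 probes that rose without both receptors was −0.11 in WT, with 5 of 10 above 0, −0.11 in CARKO, with 2 above 0, and 0.014 in PXRKO, with 6 above 0. The 7 probes that fell had medians of 0.16 in WT, 0.098 in CARKO and −0.033 in PXRKO, with 4, 4 and 3 of them above 0. The medians of all 82 probes in these genotypes were −0.026, 0.0034 and −0.0023, with 36, 42 and 41 of the 82 above 0. The differences between responses were tested themselves, in 3 comparisons that share the CARPXRKO arrays. An error of a genotype's pool remains in each of these differences.

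**Figure D4:**
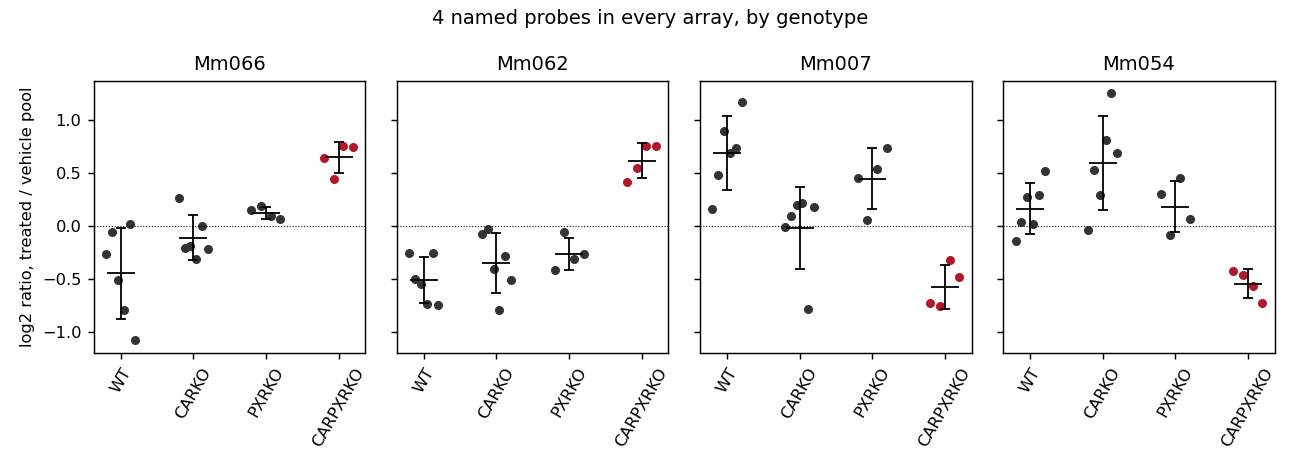
Log2 ratio of treated liver over vehicle pool on every array for Mm066, Mm062, Mm007 and Mm054, by genotype (6 WT, 6 CARKO, 4 PXRKO and 4 CARPXRKO arrays). Horizontal lines give the mean and bars the SD; the CARPXRKO points (red) of Mm066 and Mm062 lie above, and those of Mm054 below, all points of the other genotypes.

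Against WT, the response in CARPXRKO was higher for 9 (11.0%) and lower for 15 (18.3%) of the 82 probes. The highest differences were those of Mm062 and Mm066. Mm062 was below 0 on 6 of 6 WT arrays (−0.75 to −0.25, median −0.53, mean −0.51) and above 0 on 4 of 4 CARPXRKO arrays, a difference of 1.12 ± 0.15 (SE, limma adjusted p = 1.01e-05). Mm066 was at −1.08 to 0.015 in WT (median −0.39), below its lowest CARPXRKO value, and differed by 1.10 ± 0.17 (SE, adjusted p = 7.70e-05).

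The lowest differences from WT were those of Mm038 and Mm039, the probes with the largest responses in WT and PXRKO. Mm038 was at 1.91 to 6.20 in WT (median 5.04). The pool was dim for this probe on all 6 WT arrays, not well above background, and the mean over the 6 arrays was at least 16.7-fold brighter in treated livers. This bound is for the mean, and WT 1, at 1.91, lay below it. In CARPXRKO its Cy5 signal was 82, 328, 180.5 and 49 intensity units, well above background on 1 of 4 arrays, and the pool was dim on all 4. No fold is therefore given for Mm038 in CARPXRKO, and the fitted difference of −5.72 ± 0.72 (SE, adjusted p = 1.01e-05) is not a measured fold. Mm039 had log2 ratios of −0.039, −0.10, −0.045 and −0.15 in CARPXRKO, with Cy5 above background on 3 of 4 arrays and Cy3 on 1. In WT it was at 1.56 to 4.88 (median 4.70), with Cy3 above background on 1 of 6 arrays, and the fitted difference was −4.28 ± 0.51 (SE, adjusted p = 1.01e-05). The groups did not overlap for either probe. The number of the 82 probes without overlap is not given for this or the other comparisons. Absence of overlap was not limited to called probes. Mm150, at 0.28 to 0.44 in CARPXRKO and −0.77 to 0.092 in WT, did not pass against WT (limma adjusted p = 0.0809).

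Against CARKO, 10 probes (12.2%) were higher and 8 (9.76%) lower in CARPXRKO. Mm062 was below 0 on 6 of 6 CARKO arrays (−0.79 to −0.025, median −0.34) and differed by 0.97 ± 0.15 (SE, limma adjusted p = 2.02e-04). Mm073 was at 0.44, 0.32, 0.62 and 0.65 in CARPXRKO and at −0.63 to 0.094 in CARKO (median −0.32), without overlap. Its difference was 0.77 ± 0.14 (SE, adjusted p = 8.89e-04), although its pool signal was above background on 1 of 4 CARPXRKO arrays. Mm054 ran the other way, at −0.041 to 1.25 in CARKO (median 0.61), and differed by −1.14 ± 0.19 (SE, adjusted p = 4.21e-04).

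Mm037 also differed from CARKO, by −0.96 ± 0.34 (SE, adjusted p = 0.0479), but this call ended without any 1 array other than CARKO 5, and the difference was −0.74 without CARPXRKO 4 (adjusted p = 0.212). Its CARPXRKO ratios were −0.42, −0.38, −0.61 and −1.35, and in CARKO it was at −0.072 to 0.47 (median 0.31). On CARPXRKO 4 its 3 spots had ratios of −2.79, −0.67 and −0.60, and the first had 310 units in Cy5 against 1952 in Cy3. With the median of the spots in place of their mean, an alternative added after seeing the data, the difference was −0.80 (adjusted p = 0.0986). Neither Mm038 nor Mm039 differed detectably between CARPXRKO and CARKO (−1.34 ± 0.79 and −0.49 ± 0.56, SE, adjusted p = 0.285 and 0.642), and both had values on 4 of 6 CARKO arrays and were dim in Cy3 on all of them.

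Against PXRKO, 11 probes (13.4%) were higher and 12 (14.6%) lower in CARPXRKO. The highest difference was that of Mm001, at 1.60 ± 0.57 (SE, limma adjusted p = 0.0456). Mm001 was at 0.17, 0.55, 0.13 and 0.18 in CARPXRKO and at −2.37, 0.82, −1.79 and −2.03 on PXRKO 1 to 4, so PXRKO 2 lay above every CARPXRKO array. The call of Mm001 ended without any 1 array other than PXRKO 2, without which the difference was 2.32. Without PXRKO 2 the count of differing probes rose from 23 to 35, and without PXRKO 3 it fell to 13. The number of probes tested in these fits may be below 82. Mm150 was at 0.39, 0.44, 0.28 and 0.28 in CARPXRKO and at −1.09 to 0.099 in PXRKO, without overlap, and differed by 1.02 ± 0.26 (SE, adjusted p = 0.0073). With the calibration spots as the centre the difference of Mm150 was −0.055 (adjusted p = 0.898).

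Mm038 and Mm039 were again the lowest differences, at −5.07 ± 0.79 and −3.59 ± 0.56 (SE, adjusted p = 2.83e-04 for each). In PXRKO Mm038 was at 3.57 to 5.10 and the pool was dim on all 4 arrays. The mean over these arrays was at least 15.5-fold brighter in treated livers, a bound that single arrays need not reach. Mm039 was at 3.07 to 4.20 in PXRKO. No CARPXRKO array reached these values for either probe.

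**Figure D5:**
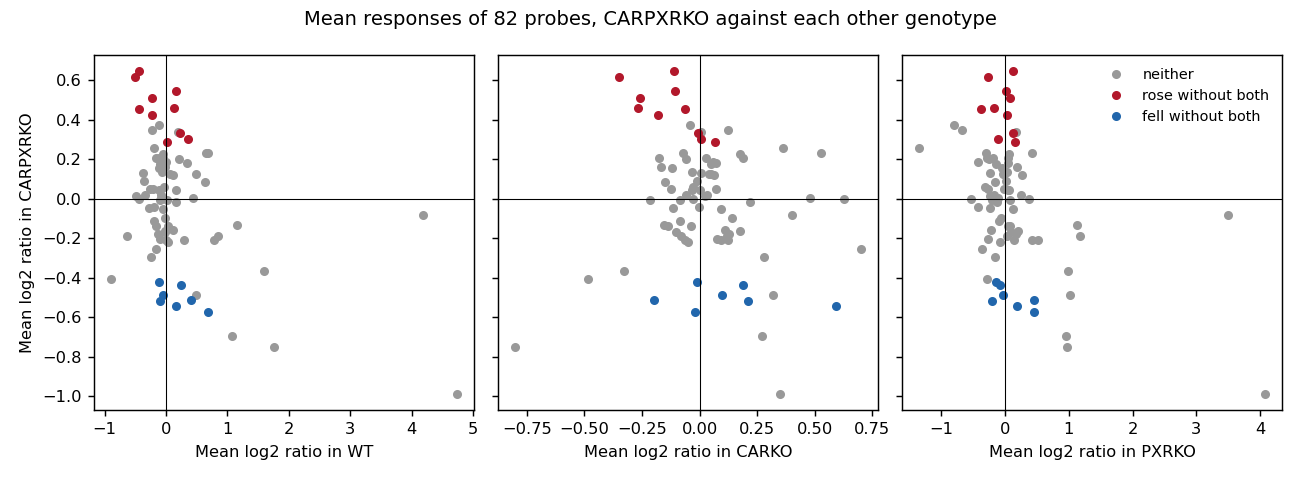
Mean log2 ratio of the 82 probes in CARPXRKO (vertical axes) against that in WT, CARKO and PXRKO (horizontal axes), with the probes that rose (red) or fell (blue) in CARPXRKO marked. Mm038 and Mm039 stand far to the right in the WT and PXRKO panels, at 4.74 and 4.19 in WT and 4.08 and 3.50 in PXRKO, and near or below 0 in CARPXRKO.

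Across the 82 probes, the mean responses in CARPXRKO had Pearson r = −0.41 (Spearman −0.26) with those in WT, −0.16 (−0.23) with CARKO and −0.46 (−0.33) with PXRKO. Leaving out Mm038 and Mm039 gave Pearson r = −0.36, −0.11 and −0.43. Single CARPXRKO arrays had r between −0.61 and 0.077 with WT arrays, between −0.44 and 0.42 with CARKO arrays and between −0.56 and 0.017 with PXRKO arrays. The lowest values with WT were those of CARPXRKO 4, at −0.61 to −0.55 with WT 2 to 6. The other CARPXRKO arrays lay between −0.36 and 0.077 with WT. The value of 0.42 was that of CARPXRKO 1 with CARKO 5. These values are descriptions over probes of the same arrays. The arrays differ by genotype in pool, Cy5 background on the negative controls and signal of added control RNA, and the part of each was not tested. The direction of every ratio follows the dye labels.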

How the data were processed

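Per the file headers, the deposited tables of the scanner give median foreground and background intensity per spot in both channels, background SDs, the percent of saturated pixels, and other columns with block, flag and position. The authors' value table, per its values, holds log2 ratios with unknown centring. Its columns correlated at 0.83 to 0.93 with the unnormalized CARPXRKO ratios (slopes 0.91 to 1.15), with medians of −0.0875, −0.257, −0.6125 and −0.453. The sources used here name neither the image software nor the rule for flags.

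With limma 3.58.1 (R 4.3.3), intensities were corrected with normexp (offset 50) and log2 ratios normalized by global loess within each array, control and flagged spots having weight 0. Flagged spots (flag below 0; 0 to 148 of 578 per CARPXRKO array) were dropped and the spots of a probe averaged. A probe was well above background when the majority of its spots exceeded their local background by 2 of its SDs. For the bounds, single channels were normalized between arrays with Aquantile.

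Genotype and replicate number come from the sample titles. The fit covered all 20 arrays with 1 mean per genotype (lmFit, eBayes, 16 residual and 3.12 prior degrees of freedom), which pools the spread over genotypes, with Benjamini-Hochberg adjustment over 82 probes. The treated livers carry no animal labels, so p-values measure the spread between samples. This is the spread within genotypes, pooled over all of them, and not that of CARPXRKO alone. Same-numbered arrays of CARPXRKO and another genotype had deviations correlated at −0.24 to 0.20. These values showed no pairing by number but cannot exclude one, and no pairing was used in the main fit. Named probes are the 2 highest and 2 lowest called values per comparison, for the response with the same sign on every CARPXRKO array. The members, the lists and the rule were chosen with earlier results of these data known. Gene lists and cell markers could not be used, because probes are not paired with genes. Scripts were tested on simulated data.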

Additional observations from a re-analysis of the deposited data

Results flagged for a closer look

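Of 40 groups of 4 or 6 values, 8 held 1 array far from the others by Dixon's test. Chance gives about 1 in 20 for independent groups chosen without regard to their values. The groups here are the named probes in each genotype, which were chosen by their values and share arrays. The 8 of 40 can therefore not be set against that rate. In CARPXRKO this was Mm001 on array 2, at 0.55 against 0.13 to 0.18 on the other arrays. In CARKO, array 5 stood apart for Mm001 (2.54), Mm007 (−0.79) and Mm150 (1.06), and array 1 for Mm039 (1.43). In WT, array 1 was low for Mm038 (1.91) and Mm039 (1.56), and in PXRKO array 2 was low for Mm037 (0.42).

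The response in CARPXRKO differed from that of another genotype by a test of the difference itself for 12 named values. Against WT these were Mm062 (1.12), Mm066 (1.10), Mm038 (−5.72) and Mm039 (−4.28). Against CARKO they were Mm062 (0.97), Mm073 (0.77), Mm054 (−1.14) and Mm037 (−0.96). Against PXRKO they were Mm001 (1.60), Mm150 (1.02), Mm038 (−5.07) and Mm039 (−3.59). The values of Mm038 and Mm039 rest on dim pool signals.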

How the results depend on the processing

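Counts of changed probes are given for the response, then for the differences from WT, CARKO and PXRKO; as reported they were 17, 24, 18 and 23. Centring on calibration controls gave 0, 8, 1 and 12, with medians of all probes of −0.31, 0.071, −0.58 and −0.69, and turned Mm150 against PXRKO to −0.055. The authors' table gave 6, 0, 1 and 4 (17, 13, 8 and 11 at an unadjusted p under 0.05). Keeping flagged spots gave 35, 40 and 28 for the first 3, over 120 probes. Upper arrays alone gave 4, 4, 0 and 3 (12 at an unadjusted p under 0.05 against CARKO), and lower arrays 0, 20, 5 and 5. Without the CARPXRKO lower arrays, an alternative added after seeing the data, the response, CARKO and PXRKO counts were 1, 7 and 7, and without arrays of conflicting protocol text 8, 10 and 13. Median centring gave 38 against WT. The response count was 27 with the 110 probes, 11 with the 55 bright ones and 29 with CARPXRKO arrays alone. The last of these fits takes the spread from the CARPXRKO arrays only, where the main fit pools it over genotypes. Leaving out single arrays gave 9 to 13, 21 to 25, 13 to 19 and 13 to 35, over sets of probes that may be below 82. A replicate block gave 15, 23, 17 and 23 and ended the call of Mm054 (−0.39, limma adjusted p = 0.067). A pairing by number was neither seen nor excluded. Other settings kept each count within 1.5 times. The calls of Mm037 and Mm001 ended in 21 of 30 and 19 of 28 settings, those of Mm066 and Mm062 in 4 of 24 each, and those of Mm007 and Mm054 in 8 of 24 each. The cause was not tested. Dim Cy3 signal limits the ratios of 25 of the 28 added probes.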
